A study of Mus musculus with 2 samples.

Results

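The forkhead (Fox) genes encode transcription factors that share a winged DNA-binding domain. They were taken here as every protein-coding gene of the GENCODE M21 annotation named Fox with a subfamily letter from a to s and a number, which gave 43 genes in 19 subfamilies among 54437 genes with listed transcripts. Of these genes, 21938 are protein-coding. The names chose the members and no measured value did. Forkhead factors recognise closely related DNA sequences, so what each one does depends largely on where it is made and on what controls its entry into the nucleus. FoxO factors are held in the cytoplasm by insulin and Akt signalling and drive genes of cell cycle exit and stress resistance. FoxC and FoxF factors act in vessel and mesenchyme development, FoxM1 in dividing cells, and FoxA1 in the hormone-sensing luminal cells of the mammary gland.

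The series holds 2 RNA libraries, titled W1 and W2, of sorted mammary basal cells, which form the outer layer of the gland's epithelium, from wild type C57BL/6 mice at 8 weeks of age. It describes Pdl1+ and Pdl1- basal cells, Pd-l1 being a surface ligand that restrains T cells, but the labels do not say which library holds which. Both libraries were therefore left unassigned and are set side by side as single libraries, without a test, an SD or a p-value, and nothing below compares Pd-l1 classes. RNA was amplified by Smart-seq II, which copies whole transcripts from very few cells, and 3055827 and 3799983 reads stood behind the values of W1 and W2. The sources used here give neither the sorting antibodies nor the numbers of mice and cells.

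The libraries stood apart from each other, and W1 went against its tissue label. The 13 basal markers summed to 300 TPM (transcript abundance per length, scaled to a fixed library total) in W1 and 40624 TPM in W2. Krt5, Cnn1 and Trp63 were at 0 in W1, Trp63 also in W2. Of the 12 basal markers that reached 1 TPM, 10 were higher in W2. The other 2, Itga6 (140 and 170 TPM) and Itgb1 (81.8 and 120 TPM), lay within 2-fold. The 12 endothelial markers summed to 5011 and 8.22 TPM, and all 10 of those that reached 1 TPM were higher in W1. Lymphatic endothelial markers summed to 13139 and 8078 TPM, most of it Ccl21a (10177 and 7543 TPM). Of the 6 that reached 1 TPM, 3 were higher in W1, 1 in W2 and 2 lay within 2-fold. Luminal markers summed to 289 and 5341 TPM, fibroblast markers to 3.19 and 206 TPM, and leukocyte markers to 96.0 and 7.17 TPM. These differences accompany every result below, and their part in the forkhead values was not tested. In bulk RNA, fewer cells of a type and less RNA per cell cannot be told apart.

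To show how closely the members resemble each other in the part that reads DNA, the 30 bases that encode most of the recognition helix are printed for 9 members with reads. They were copied from the GENCODE M21 transcripts, 5′ to 3′, with the bases that are identical in all 9 in capitals.
Foxo3: AActccaTcCGgCAcaacCTgTCccTgcAc
Foxo4: AActccaTcCGtCAcaacCTgTCctTgcAc
Foxk2: AAttcaaTtCGcCAcaatCTcTCtcTgaAc
Foxn2: AAttctgTtCGgCAtaatCTaTCccTgaAt
Foxf1: AActccgTgCGcCAcaacCTgTCgcTcaAc
Foxf2: AActccgTgCGcCAcaacCTcTCgcTcaAc
Foxc1: AAcagcaTaCGgCAcaacCTcTCgcTcaAc
Foxs1: AAcagcaTcCGcCAtaacCTgTCtcTcaAc
Foxa3: AActccaTcCGgCAttcgCTgTCctTcaAt
Of the 30 positions, 13 were identical in all 9 members shown. Against Foxo3, the number of differing bases was 2 in Foxo4, 6 in Foxf1, 7 in Foxf2, in Foxc1 and in Foxs1, 8 in Foxk2 and in Foxa3 and 9 in Foxn2. The search pattern for this helix was matched in 39 of the 43 members, all but Foxb1, Foxb2, Foxh1 and Foxr1. Among these 39 there were 35 distinct sequences, 5 of 741 pairs were identical and the median pair differed at 8 bases. One identical pair was Foxf2 and Foxq1, which also lie in the same gene cluster. Over stretches of 50 bases the members were mostly distinct. Only 4 members, among them Foxd3 with Foxd4, shared any 50-base stretch of transcript with another member, so reads of the others were not open to confusion within the family at that length.

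Of the 43 forkhead genes, 11 had reads in both libraries, 7 in W1 only, 3 in W2 only and 22 in neither. The share with no read was 51.2%, beside 51.8% of all protein-coding genes. Summed TPM of the family was 169 in W1 and 158 in W2, from 2589 and 2975 reads. The genes with a read fell in 12 of the 19 subfamilies, and the other 7 subfamilies, B, D, E, H, I, L and R, together held 16 genes without one. Levels of different members are comparable only with care, since transcripts without sequence of their own had no reads, as described at the end. The 9 detected members with a single listed transcript are the least affected by this.

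**Figure D1:**
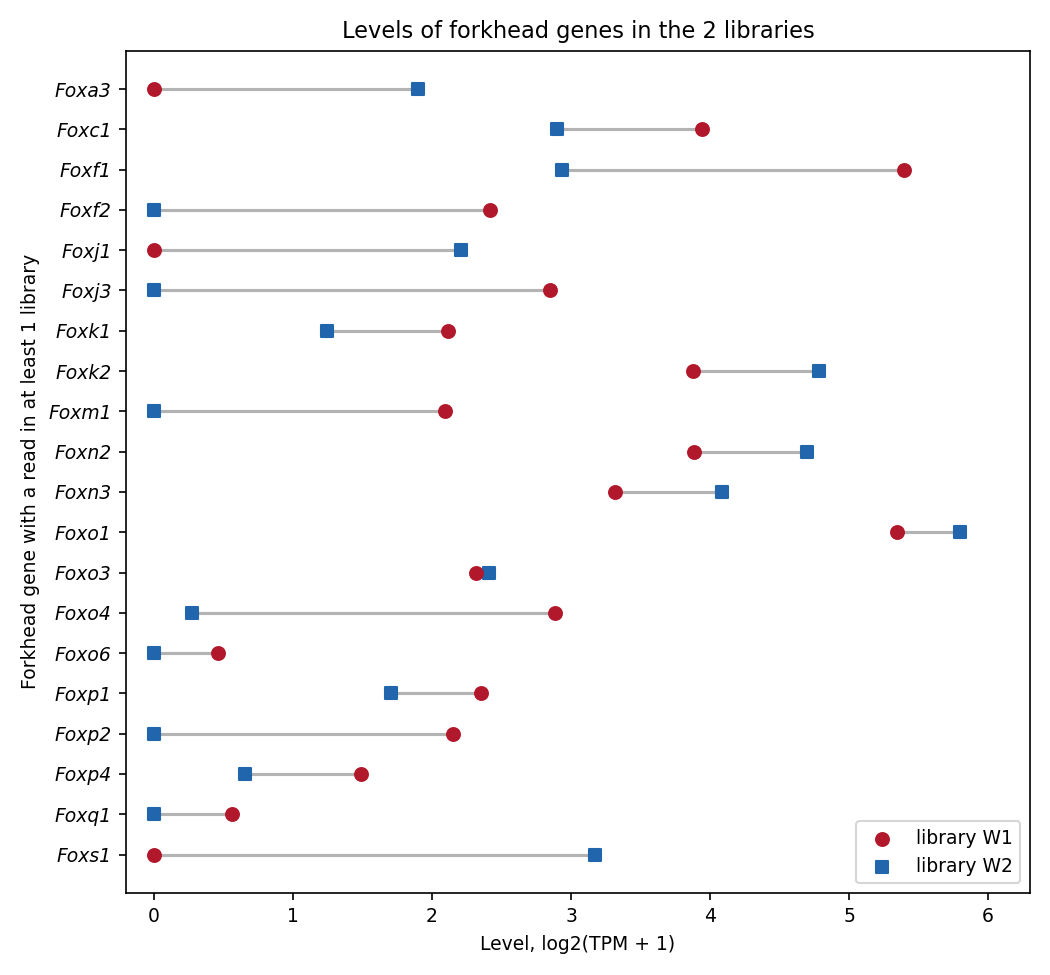
Level of 20 forkhead genes with a read, on a log2(TPM + 1) axis, in W1 (circles) and W2 (squares), each a single library without an error bar. Foxo1 is high in both libraries, Foxf1 reaches 41.1 TPM only in W1, and Foxs1 and Foxj1 are at 0 in W1.

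A gene was compared when it reached 1 TPM in at least 1 library, and counted as higher when (TPM + 1) differed 2-fold or more. Of the 18 forkhead genes compared, 7 were higher in W1 and 3 in W2, and 8 lay within 2-fold. These are 38.9% and 16.7% of the members, beside 34.7% and 32.9% of all 12586 genes compared, of which 67.6% passed 2-fold in either direction. The members' median log2 ratio of W1 over W2 was 0.74, beside -0.07 for all genes. Setting the genes with 0 reads in a library to their bounds left both medians at these values. The count leaned on annotated retained-intron transcripts. Without them 16 members were compared, 5 were higher in W1 and 6 in W2, and the median was -0.27. Of all 11690 genes compared without them, 32.7% were higher in W1 and 34.1% in W2, with a median of -0.19. The members then lay close to all genes. That alternative was chosen after the data were seen.

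Direction for members close to equal also depended on the scaling. Gm23935, a single short RNA gene, took 27.7% of all TPM in W1 and 4.13% in W2, while mitochondrially encoded and ribosomal protein genes took 9.52% and 26.4%. Across scalings and the removal of either, the median of all genes moved between -0.32 and 0.37. Each ratio below is best read relative to that shift. Foxf1, Foxo4 and Foxs1 passed 2-fold in the same direction under all 11 alternatives. With a pseudocount of 5, which weighs down low genes, Foxa3, Foxc1, Foxf2, Foxj1, Foxm1 and Foxp2 no longer passed 2-fold.

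**Figure D2:**
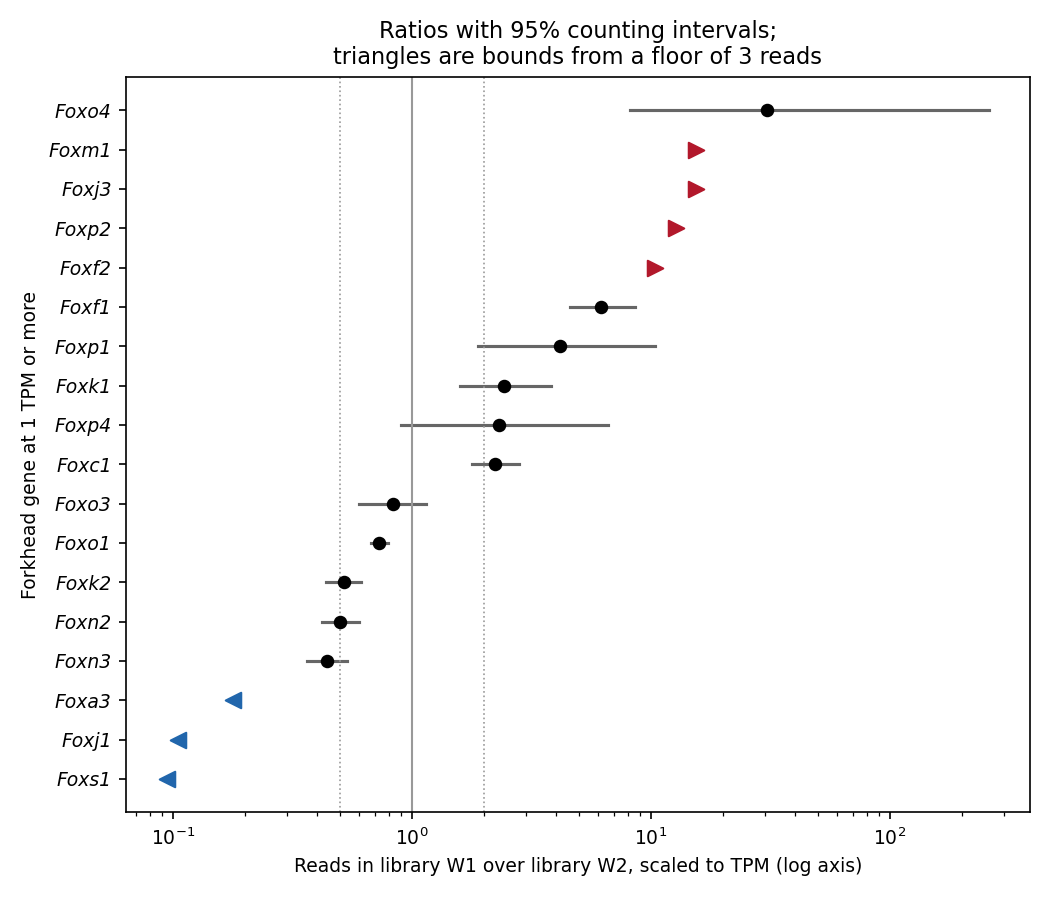
Ratio of reads in W1 over W2, scaled to TPM, on a log axis for the 18 compared forkhead genes, with exact 95% counting intervals as bars; dotted lines mark 2-fold. Triangles stand for genes with 0 reads in a library and show the ratio to a floor of 3 reads. Examples are 15.4-fold for Foxj3 and Foxm1 toward W1 and 10.6-fold for Foxs1 toward W2. The counting error of the other library is not drawn for triangles, and the text gives the lower limits.

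Subfamily F had the largest difference in summed TPM. It held 26.8% of the family's TPM in W1 and 4.20% in W2. Foxf1 (GRCm38 chr8:121084386-121088144, plus strand), a factor of mesenchyme and blood vessel development, stood at 41.1 TPM in W1 (301 reads) and 6.65 TPM in W2 (49 reads). It was 6.18-fold higher in W1 (4.56 to 8.55, exact 95% Clopper-Pearson interval of the read ratio). Foxf2, its close relative, had 4.33 TPM in W1 from 31 reads and none in W2. It was 10.4-fold higher against a floor of 3 reads in W2, with an exact 95% lower limit of 7.97-fold. Such floors leave out the counting error of the other library, so the lower limit is given beside each. Intervals and limits cover counting error only. Both genes were thus higher in the same library, and both have 1 listed transcript of which every 50-base stretch is their own.

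Foxc1 (chr13:31806633-31812476, plus strand), a factor of vessel, eye and heart development, stood at 14.4 TPM in W1 (255 reads) and 6.45 TPM in W2 (115 reads), 2.23-fold higher in W1 (1.78 to 2.81). Unlike Foxf2, it was well above its detection floor in both libraries. Its log2 ratio of 1.05 was close to the threshold and dropped to 0.79 without mitochondrial and ribosomal protein genes. Foxq1 had 7 reads in W1 and none in W2, under 1 TPM. A530084C06Rik, annotated on the opposite strand, shares 66.1% of the exon bases of Foxq1 and had no read in either library, and without strand the reads in the shared bases cannot be told apart. Foxq1, Foxf2 and Foxc1 lie next to each other on chromosome 13, 64.8 kb and 175 kb apart, and all 3 had more reads in W1. On chromosome 8, Foxl1, which lies 39.8 kb from Foxf1, had no read in either library. Other transcripts near Foxf1 were seen only in W1. Fendrr, a long noncoding RNA that lies 1276 bp away on the opposite strand, had 15 and 0 reads, and Mthfsd, 3484 bp away, had 13 and 0 reads.

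Promoters are shown for Foxf2 and Foxc1, which were both higher in W1 from the same cluster, and for Foxa3, which was seen only in W2. Each is the 250 bases before the RefSeq start (GRCm38.p6), 5′ to 3′ on the gene's strand, with matches on either strand to the GC box GGGCGG, the motif CCAAT, the ETS core CCGGAA and the box TATAAA in capitals.
Foxf2, chr13:31625566-31625815, plus strand: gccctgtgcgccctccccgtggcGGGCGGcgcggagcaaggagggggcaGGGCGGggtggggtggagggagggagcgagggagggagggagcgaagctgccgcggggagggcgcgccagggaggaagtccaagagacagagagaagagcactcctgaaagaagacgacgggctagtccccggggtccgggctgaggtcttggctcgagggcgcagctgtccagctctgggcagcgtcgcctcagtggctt
Foxc1, chr13:31806396-31806645, plus strand: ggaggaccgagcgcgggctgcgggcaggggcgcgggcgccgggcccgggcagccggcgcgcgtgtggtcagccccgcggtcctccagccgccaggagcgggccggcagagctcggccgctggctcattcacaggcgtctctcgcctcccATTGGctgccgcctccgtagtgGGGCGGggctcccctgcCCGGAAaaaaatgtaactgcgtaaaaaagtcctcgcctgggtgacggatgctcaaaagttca
Foxa3, chr7:19023540-19023789, minus strand: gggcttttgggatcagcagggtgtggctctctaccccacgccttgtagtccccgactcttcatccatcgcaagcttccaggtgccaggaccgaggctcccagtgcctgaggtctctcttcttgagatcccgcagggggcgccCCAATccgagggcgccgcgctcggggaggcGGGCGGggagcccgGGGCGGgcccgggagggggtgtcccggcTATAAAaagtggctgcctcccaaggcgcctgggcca
The RefSeq start of Foxc1 lies 13 bases inside the M21 transcript. Of the 43 members, 28 were in the RefSeq table, with 33 promoters, and the other 15 were not looked up elsewhere. The median GC content of the 33 was 62%, beside 52.4% for all 32851 promoters. The GC box GGGCGG was in 23 of the 33 promoters (69.7%) and in 32.7% of all promoters. CCAAT was in 14 (42.4%) beside 33.8%, TATAAA in 3 (9.09%) beside 12.4%, and CCGGAA, the core that ETS factors bind, in 2 (6.06%) beside 12.0%. The forkhead core TGTTTAC itself was in 1 member promoter, that of Foxa1 (3.03%), and in 3.17% of all promoters. A match describes letters in this window and is not a site shown to be bound. None of the capital matches overlap in the windows shown.

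FoxC factors act with ETS factors on composite sites in endothelial genes, and a list of 14 such genes was set beside Foxf1 and Foxc1. Of the 11 compared, 10 were higher in W1, 0 in W2 and 1 lay within 2-fold, with a median log2 ratio of 4.83, or 6.83 with genes at 0 set to their bounds. Of all genes compared, 34.7% were higher in W1 and 32.9% in W2. Most of the listed genes are themselves endothelial genes. Cdh5, Kdr and Tek are also among the endothelial markers used here, and Prox1 and Flt4 among the lymphatic ones. That the list moves with the endothelial markers is therefore partly fixed by shared genes. Cdh5, the junction cadherin of endothelium, had 6815 and 0 reads, and Kdr, a receptor for VEGF, had 6302 and 0. Dll4, a Notch ligand, had 1152 and 0 reads, and Prox1, a lymphatic factor, had 1801 and 0. Cxcr4, the chemokine receptor, was within 2-fold at 1.83 and 0.726 TPM.

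**Figure D3:**
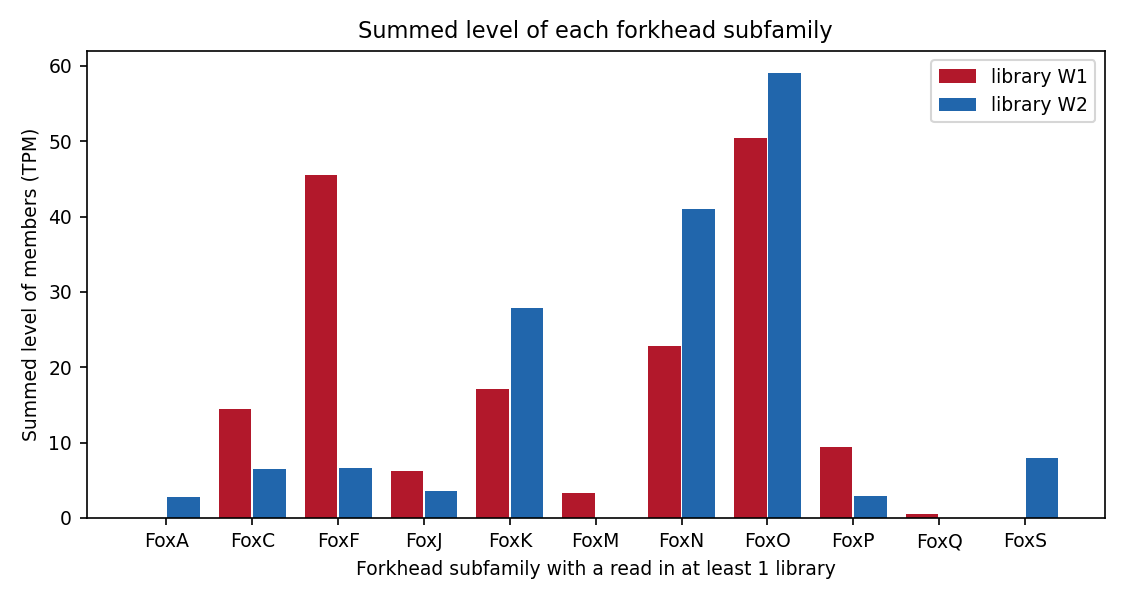
Summed TPM of the members of 11 forkhead subfamilies with a read, in W1 and W2, as single values. FoxO is the highest subfamily in both libraries (50.4 and 59.1 TPM), FoxF is next in W1 (45.5 TPM) and FoxN next in W2 (41.0 TPM).

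FoxO held the largest share of forkhead TPM in both libraries, 29.8% in W1 and 37.3% in W2. Foxo1 (chr3:52268336-52353221, plus strand) accounted for most of it. It stood at 39.7 TPM in W1 (1043 reads) and 54.6 TPM in W2 (1442 reads), 1.37-fold higher in W2 (1.27 to 1.49). The counting interval does not reach equality, but the log2 ratio of -0.45 was -0.14 after median-of-ratios scaling and -0.05 without Gm23935. Among members with 1 listed transcript, Foxf1 and Foxo1 led in W1, with counting intervals of 36.6 to 46.1 TPM and 37.4 to 42.2 TPM that overlap. In W2 Foxo1 stood alone at 51.8 to 57.4 TPM. Next came Foxs1 (5.47 to 11.3 TPM), Foxf1 (4.92 to 8.79 TPM) and Foxc1 (5.33 to 7.74 TPM), whose intervals overlap.

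Foxo3 was nearly equal, at 3.97 TPM in W1 (74 reads) and 4.31 TPM in W2 (90 reads). Its log2 ratio was -0.09 and turned to 0.16 after median-of-ratios scaling and 0.24 without Gm23935, so it has no stable direction. Foxo4 (chrX:101254528-101260873, plus strand), by contrast, had 6.37 TPM in W1 (61 reads) and 0.207 TPM in W2 (2 reads), 30.7-fold higher in W1 with a wide interval of 8.14 to 259. Foxo6 had 3 reads in W1 and none in W2. The FoxO genes thus differed from each other: 1 was 2-fold higher in W1, and Foxo1 and Foxo3 lay within 2-fold.

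The loci of Foxo1 and Foxo4 have transcribed neighbours. Gm20402, an antisense gene, shares 674 exon bases with Foxo1 (7.78% of its exon length) and had 21 and 48 reads, more in W2 as for Foxo1. A stranded kit was used per the labels, but the sources used here do not say whether the counting used strand, so reads in the shared bases are uncertain. Il2rg, the common cytokine receptor chain, lies 3505 bp from Foxo4 on the opposite strand and had 3728 reads in W1 and 15 in W2, the same direction as Foxo4. Whether the 2 are related was not tested.

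The control of FoxO activity is largely by phosphorylation and nuclear export, which RNA does not show. Of 26 upstream genes, 22 were compared: 4 were higher in W1, 5 in W2 and 13 within 2-fold, with a median of 0.08. The shares among all genes compared were 34.7% toward W1 and 32.9% toward W2. Insr, the insulin receptor, had 25.5 TPM in W1 and 5.26 TPM in W2, 3.40-fold higher in W1 (2.83 to 4.10). Usp7, a deubiquitinase that acts on FoxO proteins, had 83 and 2 reads, and Sirt1, a deacetylase of FoxO proteins, had 18 and 0. Sgk3, a kinase, had 4 and 0 reads.
Toward W2, Sfn, an epithelial 14-3-3 protein, was at 6.34 and 5296 TPM. The kinase gene Akt2 had 0 and 27 reads, Pik3r2, a regulatory subunit of PI3-kinase, 0 and 25, and Sgk1, a kinase that phosphorylates FoxO proteins, 2 and 14. Ywhae, another 14-3-3 protein, was alike at 339 and 369 TPM. Among the listed 14-3-3 genes, whose products hold FoxO in the cytoplasm, only Sfn passed 2-fold and the others lay within it.

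Of 29 FoxO target genes, 18 were compared. Among all genes compared, 34.7% were higher in W1 and 32.9% in W2. The targets were split at nearly these shares: 6 higher in W1, 6 in W2 and 6 within 2-fold, with a median of 0.13. Those toward W1 included S1pr1, a sphingosine 1-phosphate receptor (902 and 2.91 TPM), Angpt2, a vessel-destabilising ligand (173 and 2.03 TPM), and Klf2, a flow-responsive factor (527 and 23.6 TPM). Bcl2l11, the pro-apoptotic gene of Bim, was at 19.3 and 4.37 TPM. S1pr1, Angpt2 and Klf2 act in endothelium, and they moved with the endothelial markers. Toward W2 were Fbxo32, a ubiquitin ligase of muscle atrophy (3.08 and 58.1 TPM), and Gadd45a, a growth arrest gene (7.83 and 109 TPM). Bcl6, a transcriptional repressor, was at 5.52 and 16.6 TPM, and Irs2, an insulin receptor substrate, at 31.0 and 80.3 TPM. Prdx3, a mitochondrial peroxidase, lay within 2-fold at 60.7 and 36.2 TPM.

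Subfamilies K and N were detected in both libraries and had all of their 4 detected genes within 2-fold. Foxk2, a factor of metabolic gene control, stood at 13.7 TPM in W1 (209 reads) and 26.5 TPM in W2 (407 reads), 1.93-fold higher in W2 (1.63 to 2.30). Foxk1 leaned the other way, at 3.33 TPM (75 reads) and 1.37 TPM (31 reads), 2.44-fold higher in W1 by reads (1.58 to 3.83) with a log2 ratio of 0.87. The FoxK genes therefore had read ratios on opposite sides of 1 with intervals that do not overlap. Foxn2 had 13.8 TPM in W1 (193 reads) and 25.0 TPM in W2 (388 reads). Foxn3, a repressor of cell cycle and metabolic genes, had 8.95 TPM (157 reads) and 16.0 TPM (358 reads). These levels were lower in W1 for both FoxN genes, with log2 ratios of -0.81 and -0.77, and the same sign under all 11 alternatives.
Gm20682, a transcript inside a Foxn3 intron on the same strand, had 1 and 33 reads. Of 12 corepressor partners of FoxP and FoxK factors, 8 were compared, with a median of -0.16. Among all genes compared, 34.7% were higher in W1 and 32.9% in W2. Of these partners 0 were higher in W1, 1 in W2 and 7 within 2-fold. Sin3a, a scaffold of histone deacetylase complexes, was the one past 2-fold, on 0 and 5 reads. Gatad2b, a subunit of the NuRD complex, lay within 2-fold at 21.5 and 11.3 TPM.

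Subfamily P contains transcriptional repressors that bind DNA as dimers. Foxp1, which acts in lymphocyte and epithelial development, had 4.11 TPM in W1 (33 reads) and 2.27 TPM in W2 (8 reads). Foxp2 is known for its role in speech circuits and is also made in lung and other epithelia. It had 3.44 TPM from 38 reads in W1 and none in W2, 12.8-fold higher against the floor (lower limit 9.88). Foxp4 had 1.81 TPM (16 reads) and 0.574 TPM (7 reads), and the interval of its read ratio, 0.896 to 6.61, includes equality. Foxj3, a factor of germ cells and muscle, had 6.20 TPM from 46 reads in W1 and none in W2. That was 15.4-fold higher against the floor (lower limit 12.1).

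The transcripts behind these values differ in kind. All 46 reads of Foxj3 lie on a single transcript that the annotation classes as retained intron (2447 bases long), and no protein-coding transcript of Foxj3 had a read in either library. All 33 reads of Foxp1 in W1 lie on another such transcript (2652 bases long), which had 2 of the 8 reads in W2. Most 50-base stretches of these retained-intron transcripts are their own. The longest protein-coding transcripts of Foxj3 and Foxp1 have few such stretches or none. The lack of reads on those coding transcripts therefore does not show that coding RNA of Foxj3, or of Foxp1 in W1, was absent. In Foxp2 retained-intron transcripts held 23 of 38 reads, in Foxn2 26 of 193 and in Foxn3 10 of 157, all in W1.
Library W2 had 0 reads on them in these 3 genes. Over the 9 members with a retained-intron transcript, 139 of 738 reads in W1 were on one (18.8%, exact 95% interval 16.1 to 21.8) and 2 of 1168 in W2 (0.171%, 0.0207 to 0.617). Other protein-coding genes with such transcripts had 8.27% and 4.30%, so their reads on them were also more frequent in W1. When these transcripts were left out, Foxp1 had 0 and 2.02 TPM and its log2 ratio turned from 0.65 to -1.59. That value rests on 6 reads in W2. Of these, 5 lie on a transcript classed as processed transcript, not protein-coding, and 1 on a protein-coding transcript of 525 bases. Foxp1 is among the 6 members counted toward W2 in that setting. Without retained-intron transcripts Foxp2 fell under 1 TPM in W1, at 0.806 TPM, while Foxn2 and Foxn3 moved to -1.14 and -1.11. What produced these reads was not tested.

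**Figure D4:**
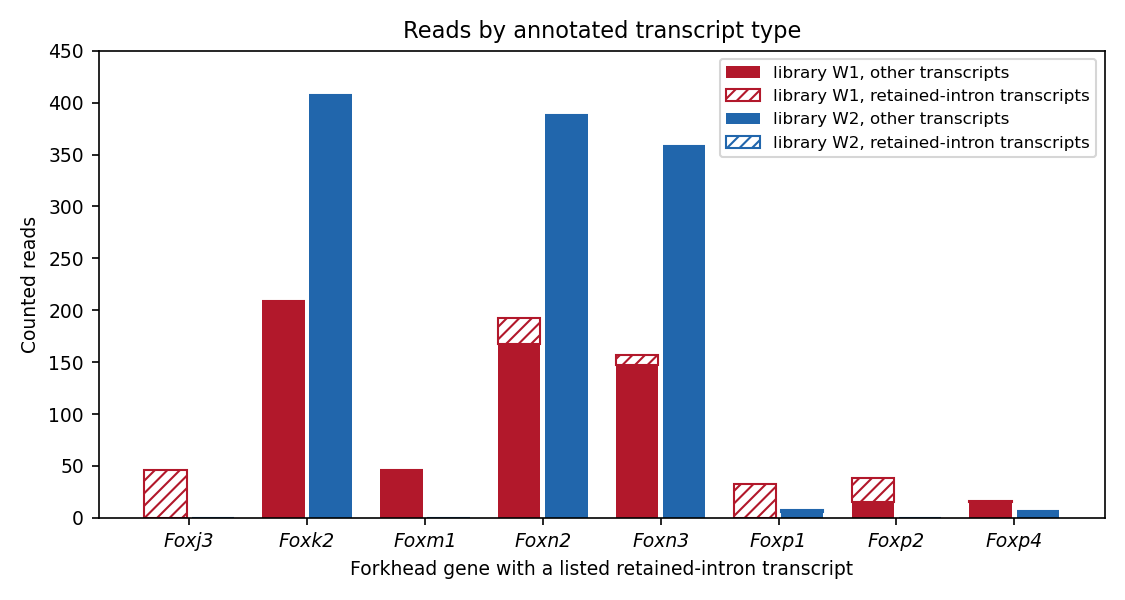
Counted reads of the 8 forkhead genes that have a listed retained-intron transcript and a read in either library; solid bars are reads on other transcripts and hatched bars stacked on them are reads on retained-intron transcripts, for W1 (left bar) and W2 (right bar). All 46 reads of Foxj3 and all 33 of Foxp1 in W1 are hatched, while W2 has 2 such reads, both in Foxp1.

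Foxm1 (chr6:128362967-128376146, plus strand) drives genes of the G2 and M phases in dividing cells. It had 3.26 TPM in W1 from 46 reads, all on 1 protein-coding transcript, and none in W2. That was 15.4-fold higher against the floor of 3 reads (lower limit 12.1). Rhno1, which lies 56 bp away on the opposite strand, had 17 and 0 reads. Of 16 genes listed as Foxm1 targets or genes of the G2 and M phases, 8 were compared. Of these, 5 were higher in W1, 2 in W2 and 1 within 2-fold. Their median was 1.83, or 2.55 with genes at 0 set to their bounds. The shares among all genes compared were 34.7% toward W1 and 32.9% toward W2.
Toward W1, the kinetochore gene Cenpf had 100 and 0 reads and the centromeric histone gene Cenpa 59 and 0. Top2a, a topoisomerase of dividing cells, had 62 and 0 reads, and the cyclin gene Ccnb2 had 32 and 0. Toward W2 were the mitotic kinesin gene Kif20a (0 and 19 reads) and the centrosomal kinase gene Nek2 (13 and 48 reads). Cks1b, a cyclin kinase subunit, was at 1.94 and 1.16 TPM. Another 6 genes of this list, Aurka, Aurkb, Birc5, Bub1b, Cdc25b and Skp2, had no read in either library. The genes of this list were therefore not uniformly on the side of Foxm1, and the list's total was low, 30.2 TPM in W1 and 8.54 TPM in W2.

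Of the forkhead genes, 3 were seen only in W2. Foxs1 (chr2:152931898-152933208, minus strand), known from perivascular cells and sensory neurons, had 8.00 TPM from 32 reads. Against the floor of 3 reads in W1 it was 10.6-fold higher (lower limit 8.13). Foxj1 (chr11:116330704-116335399, minus strand), the main regulator of motile cilia, had 3.62 TPM from 29 reads, 9.60-fold above the floor (lower limit 7.32). Foxa3 (chr7:19013284-19023538, minus strand), a factor of liver and gut, had 2.74 TPM from 17 reads, 5.63-fold above the floor (lower limit 4.10). Each has 1 listed protein-coding transcript whose 50-base stretches are all its own, so the reads are not split among isoforms. At 17 to 32 reads these levels are low.

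Genes known to go with Foxj1 and Foxs1 were set beside them. Of 9 annotated genes of the motile cilium programme, 1 was compared, Ccdc39, an axonemal gene, with 19 reads in W1, where Foxj1 had none, and 0 in W2. The axonemal genes Dnah5, Dnah9 and Tekt1 and the multiciliation genes Mcidas and Gmnc had no read in either library, and Rfx3, a ciliary factor, had 1 and 18 reads under 1 TPM. Pericyte markers, listed because Foxs1 is known from perivascular cells, summed to 59.3 and 56.6 TPM. Nearly all of this was Rgs5 (59.2 and 51.3 TPM). Vtn, with 0 and 5.26 TPM (0 and 28 reads), was the one marker of this list past 2-fold and lay toward W2 as Foxs1 did, while Pdgfrb, Cspg4, Kcnj8 and Abcc9 were at 0 in both.

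Foxa1 opens chromatin for the oestrogen receptor in hormone-sensing luminal cells. It had no read in either library, although 92.9% of its 50-base stretches are its own. A floor of 3 reads on its main transcript corresponds to 0.310 TPM in W1 and 0.308 TPM in W2. Of 15 partners and genes of hormone-sensing cells, 8 were compared: 1 was higher in W1, 5 in W2 and 2 within 2-fold. Their median was -1.53, or -2.53 with genes at 0 set to their bounds. The shares among all genes compared were 34.7% toward W1 and 32.9% toward W2.
Gata3, a luminal lineage factor, was at 0.411 and 135 TPM. Wnt4, a progesterone target, had 0 and 177 reads, and Myb, a transcription factor, had 0 and 40. The EGF-family ligand gene Areg was at 10.3 and 38.6 TPM. Xbp1, a secretory pathway factor, was within 2-fold at 480 and 245 TPM. Esr1, the oestrogen receptor gene, had 24 and 7 reads. Of the 8 luminal markers that reached 1 TPM, 7 were higher in W2, among them Epcam (0 and 1511 TPM) and Krt8 (0.169 and 1691 TPM). The other 1, Kit, went toward W1 (25.5 and 0 TPM).

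**Figure D5:**
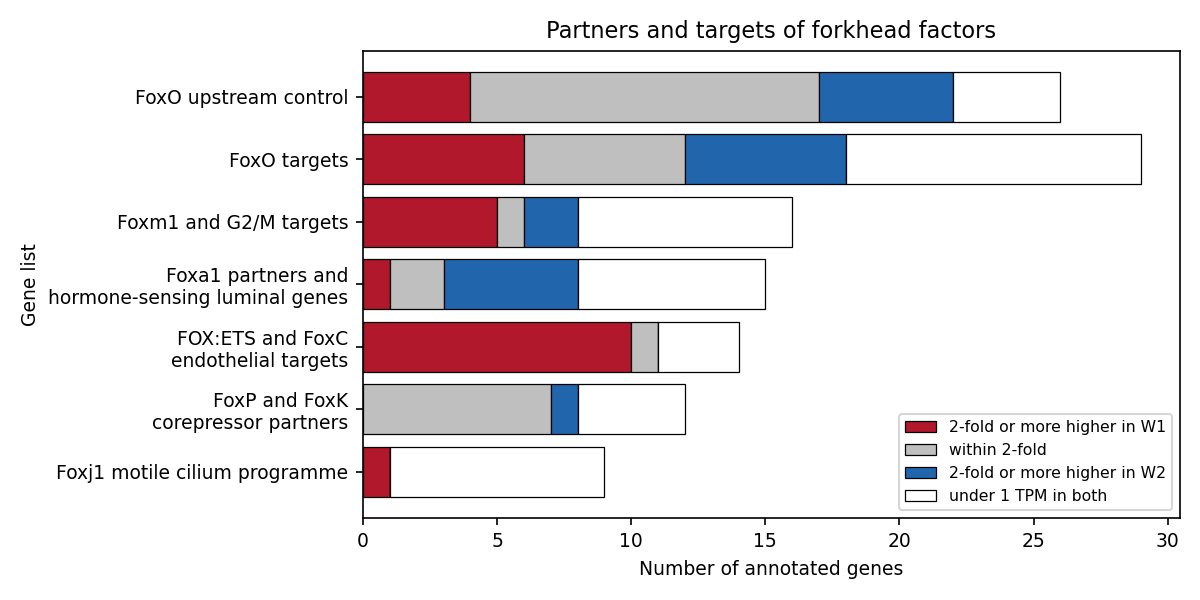
Number of annotated genes in each of the 7 lists of forkhead partners and targets that were 2-fold or more higher in W1, within 2-fold, 2-fold or more higher in W2, or under 1 TPM in both. The endothelial target list has 10 of 11 compared genes toward W1, the FoxO target list is split 6, 6 and 6, and the corepressor list has 7 of 8 within 2-fold.

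The 22 forkhead genes without a read cannot be treated alike. In 14 of them at least 90% of the 50-base stretches occur in no other listed transcript, and for these 3 reads would correspond to 0.196 to 1.14 TPM in W1, the limit that a count of 0 allows. They include Foxa1, the FoxB, FoxD, FoxE and FoxL genes, Foxi1, Foxi2 and Foxn1, the thymic epithelial factor. In 5 others, Foxa2, Foxi3, Foxj2, Foxp3 and Foxr2, that share was 4.37 to 15.3%, so a 0 there says little. Foxh1, Foxn4 and Foxr1 lay between, at 58.2 to 70.3%.
Over the family, 160 transcripts were listed. All 30 with a read had at least 17 such stretches of their own, and 0 of the 23 without any had a read. Foxp3, the factor of regulatory T cells, is among the genes with a low share of stretches of their own, at 6.81%. Ctla4 and Il2ra, which such cells also make, had 24 and 11 reads in W1 and 0 in W2. Of the T cell markers, Cd3e, Cd4 and Cd8a had 0 reads in both libraries and Cd3d had 2 and 0. Cd3e, Cd4 and Cd8a have 4, 5 and 3 listed transcripts, and their own 50-base stretches were not counted. Their 0 may therefore carry the same limit as that of Foxp3. Absence of Foxp3 RNA and reads that were not assigned cannot be told apart. For Foxj2, an antisense gene, Gm26826, had 0 and 11 reads while Foxj2 itself had none.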

How the data were processed

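TPM and FPKM values were deposited by the authors for each of 137767 transcripts in both libraries. The submitters' processing notes name Bowtie 0.12.2 and the builds mm8 and GRCm38, and no source used here names the counting tool, the annotation or whether strand was used. Identifiers were matched to GENCODE M21 (137654 matched), which may not be the authors' annotation, and values were summed per gene. FPKM times transcript length fell on whole multiples of 1 step, within 0.1 read for 98.4% and 97.7% of transcripts, which gave reads; the FPKM denominators were 3055827 reads (W1) and 3799983 reads (W2). One read on a 3 kb transcript is 0.110 and 0.109 TPM.

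The statistic was the log2 ratio of TPM + 1, which understates differences of low genes, for genes at 1 TPM or more. All compared forkhead genes are named, with up to 4 list genes in each direction by the size of the log2 ratio and the highest within 2-fold. Overlapping genes with few or no reads are mostly not named. The neighbours named were chosen after their values were seen. So were the markers Kit, Itga6, Itgb1, Ccl21a, Vtn, Ctla4, Il2ra, Cd3e, Cd3d, Cd4 and Cd8a. The same holds for the list genes Esr1, Aurka, Aurkb, Birc5, Bub1b, Cdc25b, Skp2, Dnah5, Dnah9, Tekt1, Mcidas, Gmnc and Rfx3. Read ratios carry 95% Clopper-Pearson intervals; where a gene has isoforms of unequal length they need not match the TPM ratio. No molecular identifiers are named, so they cover counting error only. Members and lists were chosen with earlier results of these data known, and some genes and sequences are not reported here. Alternatives varied the pseudocount, filter, unit, scaling and transcripts. The steps were tested on simulated data. Software was pandas 2.3.3, numpy 2.4.6 and scipy 1.17.1 under Python 3.11.15, with plots by matplotlib 3.10.9.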

Additional observations from a re-analysis of the deposited data

How the results depend on the processing

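With 1 library of each kind, counting error is the only error measured, and members under about 30 reads are the least certain. Over 11 alternatives the 18 compared forkhead genes gave 197 values. Of these, 157 stayed inside a counting range around the value reported first and 40 fell outside it. That range sets the lower 95% Poisson limit of one library against the upper limit of the other, on the TPM + 1 scale. It is not the Clopper-Pearson interval given with the read ratios. Foxo3 and Foxp1 changed sign without being past 2-fold in the values reported first. No paired analysis was possible because each library is single. Counts of forkhead genes (7 toward library W1, 3 toward library W2) became 3 and 1 with a pseudocount of 5, 11 toward W1 on CPM-scaled reads, and toward W2 6 without mitochondrial and ribosomal protein genes, 5 with only the main transcript and 6 without retained introns. In the lists, a pseudocount of 5 gave 3 and 0 (Foxm1 targets, W1 and W2), 1 (FoxO upstream, W2), 0 (corepressors, W2), 0 (cilium, W1) and 3 (Foxa1 partners, W2), and one of 0.1 gave 2 (Foxa1 partners, W1), 1 (corepressors, W1) and a Foxm1 target median of 4.14. FPKM gave 2 (corepressors, W1), 2 (Foxa1 partners, W1) and 3 (FoxO upstream, W2), and median-of-ratios scaling 2 and 2 for the first pair. At least 20 reads gave 0 (corepressors, W2), 2 (FoxO upstream, W1) and 1 (Foxm1 targets, W2). CPM-scaled reads gave 1 (cilium, W2), 1 (endothelial targets, W2), 3 (Foxa1 partners, W1) and 3 (corepressors, W1). Without mitochondrial and ribosomal protein genes there were 3 (corepressors, W2) and 1 (endothelial targets, W2), and without retained introns 2 (FoxO upstream, W1). Without Gm23935 there were 3 (corepressors, W1), 3 (FoxO upstream, W2), 3 (FoxO targets, W2), 2 (Foxa1 partners, W1) and a FoxO upstream median of 0.47. The causes of these moves were not tested beyond what each alternative leaves out.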
